A study of Mus musculus with 6 samples.

Results

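The genes described here are 37 genes of homologous recombination, the Fanconi anaemia pathway and the DNA damage checkpoint, out of 30733 gene symbols in the tables. They were chosen by name, as rows whose symbol is on a list of DNA break repair, crosslink repair and checkpoint genes. None of the 37 symbols was repeated, and all 37 had a mean of at least 1 FPKM (sequenced fragments per transcript length and library size), the limit for testing. RNA was sequenced from bone marrow cells labelled as hematopoietic stem cells of wild-type (WT) mice aged 12 months, sorted by surface MHC class II into MHCII_hi and MHCII_lo fractions, with 3 libraries each. No treatment or allele is named. The labels do not tell whether libraries of a fraction are separate animals or repeats of 1 pool, and all p-values therefore rest on a library-to-library spread that may be technical. The comparison asks which transcripts differ between cells with high and with low MHC class II at middle age.

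Homologous recombination repairs a broken chromosome by copying the intact sister. The MRN complex and its partners cut the break back to single-stranded DNA, BRCA1, BRCA2 and their partners prepare that DNA for pairing with the sister, and the BLM complex separates the joined molecules. The Fanconi anaemia proteins unhook crosslinks between DNA strands and hand the break to recombination. The kinases ATM and ATR signal the damage to CHK2 and CHK1, which hold the cell cycle. Loss of Fanconi genes causes bone marrow failure, and many genes of these pathways are transcribed most in cells that replicate DNA.

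The identity of the libraries was checked first. All 4 class II genes checked (Cd74, H2-Eb1, H2-Ab1 and H2-Aa) were higher in MHCII-hi. H2-Eb1, for example, had 6.3 ± 0.404 FPKM in MHCII-lo and 15.8 ± 0.786 FPKM in MHCII-hi, where ± is the SD over the n = 3 libraries of a fraction, as in all means below. Of 18 stem cell and progenitor markers 11 could be tested, of which 4 were lower and 5 higher in MHCII-hi. Procr, Slamf1, Mecom, Fgd5 and Hoxb5, which mark long-term stem cells, lay below 1 FPKM in every library, and Fgd5 and Hoxb5 were near 0. Of 22 neutrophil markers 21 were higher in MHCII-hi and 1 lower, and their sum lay between 12117 and 12217 FPKM in the MHCII-lo libraries and between 57496 and 58156 FPKM in the MHCII-hi libraries, or 3.71% and 16.7% of summed FPKM. Of 16 erythroid markers 15 were lower, with sums of 663 to 675 FPKM in MHCII-lo and 405 to 423 FPKM in MHCII-hi. Of 17 B cell markers 4 could be tested, and 3 were higher and none lower. Their sum, 120 to 128 FPKM in MHCII-lo and 367 to 375 FPKM in MHCII-hi, was mostly Ighm (107 ± 2.61 and 349 ± 4.21 FPKM), while Cd79b did not pass (10.2 ± 0.766 and 9.54 ± 0.56) and Vpreb3 was below the limit for testing (0.763 ± 0.304 and 0.197 ± 0.224). Of 11 tested plasma cell markers 6 were higher and 2 lower, the latter Ighg1 (529 ± 5.13 and 160 ± 2.79 FPKM) and Ighg2b (479 ± 2.22 and 248 ± 4.64), and their sums were 2066 to 2090 and 1966 to 2003 FPKM. No marker of these lists was at 0 in every library. The part of these cells in the results below was not tested. In sorted bulk RNA, fewer cells of a type and less RNA per cell cannot be told apart. Read numbers cannot be had from FPKM, so the depth behind each value is unknown.

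Promoter sequences of member genes are shown because 20 of the 37 were lower in MHCII-hi and because E2F factors, which drive genes of DNA replication, are known regulators of several of them. Of the 37 members, 28 had a promoter entry in the RefSeq table (GRCm38.p6), and the last bases of the entry matched the start of an annotated transcript for 27 of these. The 250 bases before the start were searched on both strands for 4 E2F words (TTTCCCGC, TTTCGCGC, TTTGCCGC and TTTGGCGC), for TTTGAA (the CHR element of late cell cycle genes) and for CCAAT. An E2F word stood in 5 of 28 members (17.9%), against 4.18% of 8334 tested genes with an entry and 2.16% of all 27025 genes with one. CCAAT stood in 17 members (60.7%, against 41.4% of tested genes and 37.5% of all) and TTTGAA in 1 member (3.57%, against 13.1% and 18.3%). No word overlapped another in the stretches below, which give every E2F word found, in capitals and 5′ to 3′ on the strand of the gene, with 11 bases on either side for 3 genes.
Brca2 (chr5:150522442-150522471, + strand): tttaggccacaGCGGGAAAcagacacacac
Chek2 (chr5:110839820-110839849, + strand): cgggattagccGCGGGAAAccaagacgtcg
Fancg (chr4:43010335-43010364, − strand): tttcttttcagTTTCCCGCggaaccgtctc
For Bard1, Clspn and Topbp1, the called members with an entry and the smallest p-values after Timeless (whose entry lies inside the annotated gene), the upstream bases outside the gene are shown, with E2F words, TTTGAA and CCAAT in capitals. A word on the other strand appears as its reverse complement.
Bard1 (chr1:71103147-71103222, − strand): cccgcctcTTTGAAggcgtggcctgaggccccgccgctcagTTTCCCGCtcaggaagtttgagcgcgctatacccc
Topbp1 (chr9:103305077-103305214, + strand): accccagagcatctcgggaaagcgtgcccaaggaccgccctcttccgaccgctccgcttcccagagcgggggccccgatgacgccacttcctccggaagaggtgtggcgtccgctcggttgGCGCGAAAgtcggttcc
Clspn (chr4:126556730-126556934, + strand): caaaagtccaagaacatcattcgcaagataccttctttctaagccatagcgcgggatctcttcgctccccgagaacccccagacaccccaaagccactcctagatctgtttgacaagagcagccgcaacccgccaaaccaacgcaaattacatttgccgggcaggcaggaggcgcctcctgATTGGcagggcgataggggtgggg
For Bard1, Topbp1, Clspn, Chek2 and Fancg the RefSeq start lies inside the gene as GENCODE annotates it. For Bard1, Topbp1 and Clspn the bases inside the gene are not shown, and the stretch of Chek2 lies wholly before the gene. The stretch of Fancg lies within the gene (chromosome 4, 43002343 to 43010506), before the RefSeq start. A match is a string of letters and was not tested for binding. Of the 5 members with an E2F word 3 were lower in MHCII-hi (median log2 fold change −0.21), and of the 23 with an entry but no such word 12 were lower (median −0.23). Tipin, Rad50, Rbbp8, Exo1, Nbn, Rad51d, Xrcc2, Rmi2 and Fancd2 had no entry.

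Of the 37 genes, 20 were lower and none higher in MHCII-hi at an adjusted p under 0.05 (limma on log2(FPKM + 1), Benjamini-Hochberg over all 12037 tested genes). In the same comparison 40.6% of all tested genes were lower and 20.4% were higher, so the share of lower members, 54.1%, stood above the background and the share of higher members below it. The members lost 14 to 34.1% of their mean level where they were called. Their median log2 fold change was −0.22 (MHCII-hi minus MHCII-lo; the pseudocount of 1 makes the change of low genes look smaller than it is), against −0.12 over all tested genes. The fold change was below 0 in 33 members (89.2%) and in 64.9% of all tested genes. The 3 MHCII-hi values lay wholly below the 3 MHCII-lo values in 27 members and wholly above in none, and the background shares were 45% and 22.6%. The plot of levels by library shows this separation gene by gene.

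**Figure D1:**
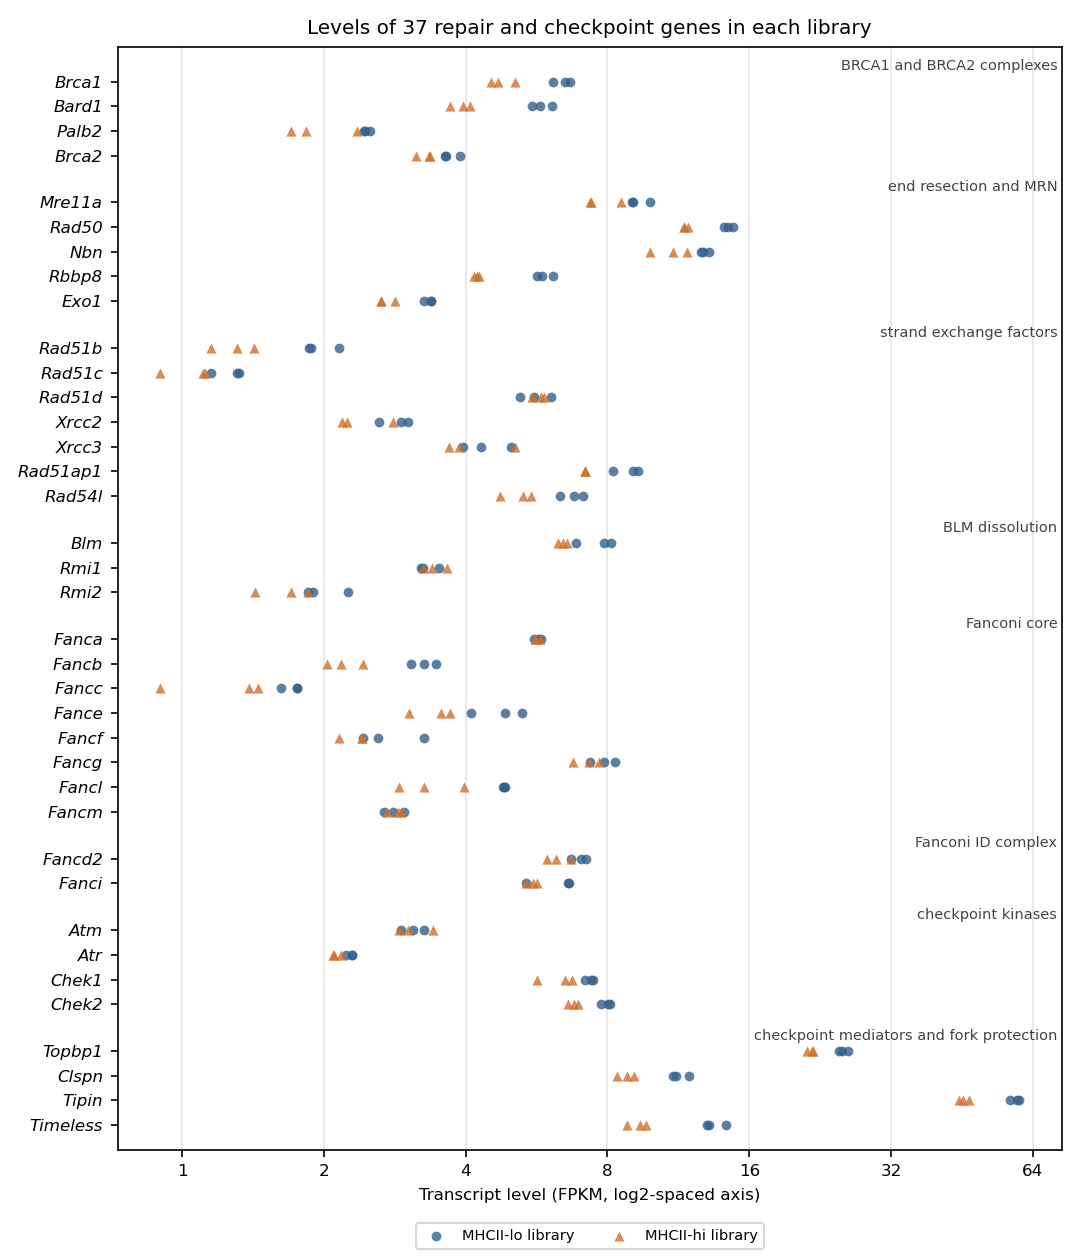
Transcript level of each of the 37 genes in FPKM on a log2-spaced axis, with 1 point per library (circles for the 3 MHCII-lo, triangles for the 3 MHCII-hi libraries) and genes ordered by role. The groups do not overlap in 27 genes, in each of which the MHCII-hi values are the lower ones, and Tipin has the highest level of all members.

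The size of this shift depended on how libraries were scaled, and the 10 most abundant genes held 11.55 to 11.75% of summed FPKM in MHCII-lo against 19.36 to 19.45% in MHCII-hi. The median of all tested genes moved from −0.12 as deposited to −0.01 after median-ratio scaling, and relative to that median the members stood at −0.10 and −0.09. With median-ratio scaling 14 members were lower and none higher, where 25.9% of all genes were lower and 28.2% higher. With totals taken without the neutrophil markers 12 members were lower and 1, Fanca, higher, against 25.7% and 28.4% of all genes. Quantile normalization left 17 lower and none higher (background 33.4% and 23.4%), and median centring, a setting chosen after the data were seen, 16 and none (30.6% and 24.8%). Higher calls made up 33.4% of all called genes as deposited (2450 higher, 4883 lower) and 52.1% after median-ratio scaling (3392 and 3123). They made up 52.4% with totals without neutrophil markers (3413 and 3095) and 44.8% after median centring (2989 and 3687). Under all 4 other scalings 12 genes were called lower: Brca1, Bard1, Rad50, Rbbp8, Rad51b, Rad51ap1, Rad54l, Fancb, Fancl, Clspn, Tipin and Timeless.

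**Figure D2:**
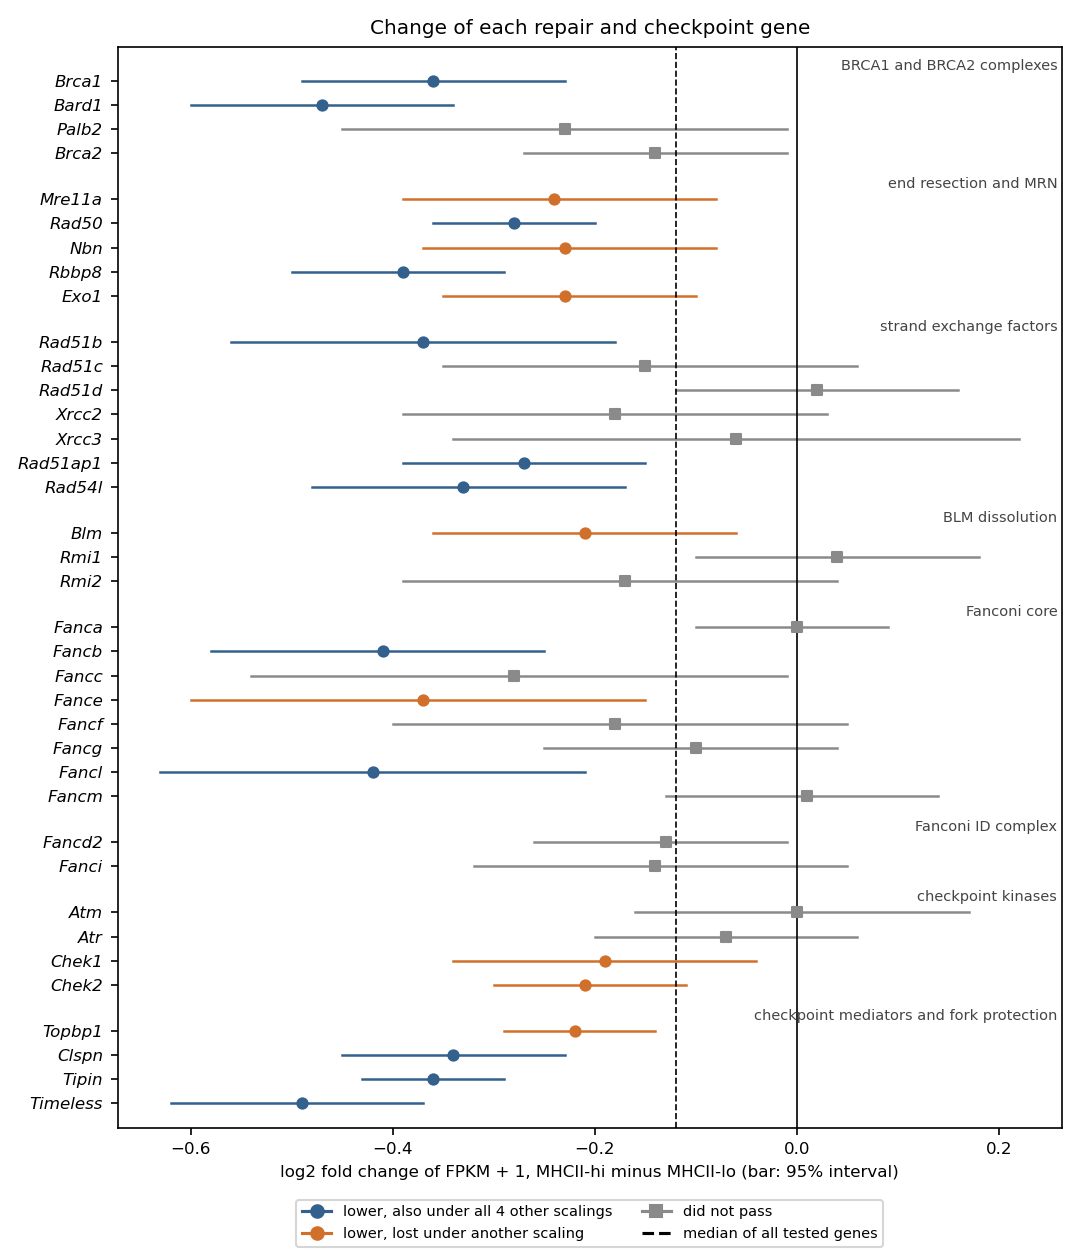
Log2 fold change of FPKM + 1 for each gene (MHCII-hi minus MHCII-lo) with its 95% interval from limma, not adjusted for multiple tests. Blue circles mark the 12 genes called lower also under 4 other scalings, orange circles the other 8 called genes and grey squares the 17 that did not pass; the dashed line is the median of all tested genes, −0.12.

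BRCA1 and BARD1 form a ubiquitin ligase that commits a break to recombination, and both of their genes were lower in MHCII-hi. Bard1 (chromosome 1, 71027498 to 71103146, GRCm38) stood at 5.54, 6.10 and 5.75 FPKM in the MHCII-lo libraries and at 3.70, 4.08 and 3.94 in MHCII-hi. All MHCII-hi values lay below all MHCII-lo values, and the mean was 32.6% lower (log2 fold change −0.47, SE 0.0538, limma adjusted p 0.000308). Brca1 (chromosome 11, 101488764 to 101551955) stood at 6.12, 6.50 and 6.65 FPKM in MHCII-lo and at 5.09, 4.69 and 4.53 in MHCII-hi, again without overlap. Its mean was 25.7% lower (log2 fold change −0.36, SE 0.0545, adjusted p 0.00114). MHCII-lo had a ratio of Brca1 to Bard1 of 1.11 ± 0.0456, and MHCII-hi one of 1.22 ± 0.131, with overlapping values. BRCA2, which acts on the resected DNA, and PALB2, which ties it to BRCA1, were encoded at lower levels. Brca2 had 3.71 ± 0.162 and 3.28 ± 0.122 FPKM and Palb2 2.46 ± 0.0436 and 1.96 ± 0.344 FPKM in MHCII-lo and MHCII-hi. Neither passed the test (adjusted p 0.0567 and 0.0632), although their groups did not overlap. Of the 4 genes of these complexes 2 were thus lower (50%, against 40.6% of all tested genes). Palb2 was called without MHCII-hi replicate 1 (adjusted p 0.00975) and Brca2 without an intensity trend in the variance model (0.0299).

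The 5 genes of end resection were all called lower, where 40.6% of all tested genes were. RAD50, MRE11 and NBS1 make up the MRN complex that holds and trims broken ends. Rad50 (chromosome 11, 53649519 to 53707319) stood at 14.44, 14.76 and 14.13 FPKM in MHCII-lo and at 11.64, 11.63 and 11.86 in MHCII-hi. The fractions were well apart, at a mean 18.9% lower (log2 fold change −0.28, SE 0.0327, limma adjusted p 0.000337). Mre11a stood at 9.01, 9.06 and 9.87 FPKM in MHCII-lo and at 7.37, 7.35 and 8.55 in MHCII-hi (adjusted p 0.0179). Nbn stood at 13.14, 12.63 and 12.78 FPKM in MHCII-lo and at 11, 11.78 and 9.83 in MHCII-hi (adjusted p 0.0177). In Mre11a the highest MHCII-hi value and in Nbn the spread within MHCII-hi brought the fractions close. MHCII-lo had a ratio of Rad50 to Mre11a of 1.55 ± 0.107 and MHCII-hi one of 1.52 ± 0.112, again overlapping. Rbbp8, which encodes the resection factor CtIP, had the largest log2 fold change of the 5. It stood at 5.82, 6.12 and 5.66 FPKM in MHCII-lo and at 4.23, 4.17 and 4.28 in MHCII-hi, 28% lower on average (log2 fold change −0.39, adjusted p 0.000307). Exo1, the exonuclease of long resection, had 3.34 ± 0.0608 and 2.71 ± 0.107 FPKM (adjusted p 0.00781).

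Of these 5, Rad50 and Rbbp8 were lower under every scaling. After median-ratio scaling these 2 were the only ones lower, where 25.9% of all tested genes were. The call of Exo1 did not survive median-ratio scaling (adjusted p 0.0733) or totals without neutrophil markers (0.0788). That of Nbn survived neither of these (0.199 and 0.21) nor median centring (0.0789). Mre11a was not called under any of the 4 other scalings (adjusted p 0.0512 to 0.178). Mre11a also rested on single libraries, with adjusted p of 0.0586 without MHCII-lo replicate 3, 0.057 without MHCII-hi replicate 1 and 0.0572 without MHCII-hi replicate 2. Nbn was at 0.0557 without MHCII-lo replicate 1.

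Rad51b, Rad51c, Rad51d, Xrcc2 and Xrcc3, which encode related proteins that assist strand exchange, were low and mixed. Rad51b was the one of these 5 that was lower. It stood at 1.88, 2.15 and 1.86 FPKM in MHCII-lo and at 1.42, 1.15 and 1.31 in MHCII-hi. Its mean was 34.1% lower, the largest relative loss among the called members (log2 fold change −0.37, SE 0.0813, limma adjusted p 0.00668). Rad51c (1.26 ± 0.0954 and 1.04 ± 0.124 FPKM), Xrcc2 (2.85 ± 0.208 and 2.41 ± 0.339), Xrcc3 (4.42 ± 0.532 and 4.22 ± 0.771) and Rad51d (5.63 ± 0.436 and 5.72 ± 0.175) did not pass. For Rad51d the 95% interval of the log2 fold change ran from −0.12 to 0.16, and for Xrcc3 from −0.34 to 0.22. Xrcc2 was called without MHCII-hi replicate 3 (adjusted p 0.0289). Per length, Rad51d had the highest level of the 5 in both fractions and Rad51c the lowest.

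Both other genes of strand exchange were lower. With Rad51b, 3 of the 7 genes of strand exchange were lower (42.9%), a share near the 40.6% of all tested genes. Rad51ap1, which encodes a cofactor of strand pairing, stood at 9.31, 9.07 and 8.21 FPKM in MHCII-lo and at 7.16, 7.18 and 7.17 in MHCII-hi (adjusted p 0.00328). Rad54l, a motor protein that drives strand exchange, stood at 6.80, 7.09 and 6.35 FPKM in MHCII-lo and at 4.73, 5.30 and 5.51 in MHCII-hi (adjusted p 0.00399). Neither gene had overlapping fractions. Of the exonic bases of Rad54l, 15.4% lie opposite exons of Lrrc41 (mean 6.93 FPKM), and whether counting used strand is not stated, so the value of Rad54l may hold reads of that gene.

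The BLM helicase works with RMI1 and RMI2 to part recombined molecules without crossing over. Blm stood at 7.86, 8.15 and 6.86 FPKM in MHCII-lo and at 6.29, 6.44 and 6.56 in MHCII-hi, and its call (limma adjusted p 0.0233) was among the least secure. It was lost under all 4 other scalings (adjusted p 0.101 to 0.249) and without a filter on low values (0.0556). Dropping MHCII-lo replicate 1 (0.0723) or 2 (0.0702), or MHCII-hi replicate 1 (0.0658) or 2 (0.056), ended it as well. Rmi2 had 2 ± 0.218 and 1.66 ± 0.213 FPKM (adjusted p 0.138). Rmi1 had 3.32 ± 0.165 and 3.44 ± 0.207 FPKM, with an interval of the log2 fold change from −0.10 to 0.18. Exons of Hnrnpk (mean 99.6 FPKM) lie opposite 5.02% of the exonic bases of Rmi1.

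The Fanconi core complex is a ubiquitin ligase that marks FANCD2 and FANCI at crosslinks, and its 8 measured genes split. Fancb, Fance and Fancl were lower. Their share of the 8, 37.5%, was near the 40.6% of all tested genes that were lower. FANCL is the catalytic subunit and FANCB its direct partner. Fancl stood at 4.84, 4.82 and 4.80 FPKM in MHCII-lo and at 3.27, 2.89 and 3.96 in MHCII-hi, 30% lower on average (log2 fold change −0.42, SE 0.0889, limma adjusted p 0.00573). Its MHCII-lo values were nearly equal and its MHCII-hi values spread. Fancb (X chromosome, 164980592 to 164997272) stood at 3.27, 3.07 and 3.46 FPKM in MHCII-lo and at 2.42, 2.03 and 2.18 in MHCII-hi, 32.3% lower (adjusted p 0.00209). Fance, which encodes the subunit that binds FANCD2, stood at 4.10, 5.28 and 4.86 FPKM in MHCII-lo and at 3.04, 3.70 and 3.55 in MHCII-hi (adjusted p 0.0124), and it lost its call with totals without neutrophil markers (0.0515). In all 3 genes the fractions did not overlap. Exons of Vrk2 (mean 4.83 FPKM) lie opposite 13.7% of the exonic bases of Fancl.

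The other core genes did not pass. Fanca stood at 5.59, 5.77 and 5.69 FPKM in MHCII-lo and at 5.62, 5.76 and 5.63 in MHCII-hi, and its interval of the log2 fold change ran from −0.10 to 0.09. With totals without neutrophil markers its log2 fold change was 0.11 (adjusted p 0.0486). FANCM, the DNA translocase that anchors the complex, was encoded at 2.82 ± 0.135 and 2.84 ± 0.0945 FPKM (interval −0.13 to 0.14). Fancg had 7.84 ± 0.475 and 7.24 ± 0.463 FPKM (adjusted p 0.183) and Fancf 2.77 ± 0.446 and 2.32 ± 0.15 (0.149). Fancc stood at 1.75, 1.75 and 1.62 FPKM in MHCII-lo and at 0.90, 1.39 and 1.45 in MHCII-hi (0.0685), without overlap but with 1 MHCII-hi library well below the other two. FANCD2 and FANCI form the clamp that the core complex modifies, and neither gene passed. Fancd2 had 6.98 ± 0.269 and 6.28 ± 0.37 FPKM (adjusted p 0.0631) and Fanci 6.2 ± 0.731 and 5.54 ± 0.163 (0.172). Their ratio had a mean of 1.13 in either fraction (± 0.101 in MHCII-lo, ± 0.0579 in MHCII-hi). Fancd2 was called without MHCII-hi replicate 2 (adjusted p 0.033) and Fanci without MHCII-lo replicate 1 (0.0106). Exons of Polg lie opposite 16% of the exonic bases of Fanci, those of Gas2 opposite 15% of Fancf and those of Zfp276 opposite 10.5% of Fanca.

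Of the checkpoint kinases, the effectors were lower and the apical kinases did not pass. These 2 of 4 genes (50%) were a share near the 40.6% of all tested genes. The median log2 fold change of the 4 was −0.13, against −0.12 over all tested genes. After median-ratio scaling none of the 4 was called, where 25.9% of all tested genes were lower. Atm, the kinase of double-strand breaks, stood at 3.26, 3.10 and 2.91 FPKM in MHCII-lo and at 3.02, 3.41 and 2.89 in MHCII-hi, and its interval of the log2 fold change ran from −0.16 to 0.17. Atr, the kinase of single-stranded DNA and stalled forks, stood at 2.23, 2.29 and 2.30 FPKM in MHCII-lo and at 2.17, 2.10 and 2.09 in MHCII-hi (limma adjusted p 0.318, interval −0.20 to 0.06). Chek2, the effector of ATM, stood at 8.02, 7.77 and 8.11 FPKM in MHCII-lo and at 6.80, 6.92 and 6.59 in MHCII-hi (log2 fold change −0.21, SE 0.039, adjusted p 0.00338). Chek2 exceeded Atm 2.58 ± 0.177-fold in MHCII-lo and 2.19 ± 0.137-fold in MHCII-hi, without overlap. Chek1, the effector of ATR, stood at 7.16, 7.37 and 7.47 FPKM in MHCII-lo and at 5.67, 6.50 and 6.74 in MHCII-hi (adjusted p 0.032). Both calls depended on scaling. Chek2 was at an adjusted p of 0.0867 after median-ratio scaling and 0.0951 with totals without neutrophil markers. Chek1 lay between 0.137 and 0.352 under the 4 other scalings, and at 0.0725 without a filter on low values. Chek1 also lost its call without MHCII-lo replicate 1 (0.0574), 2 (0.0777) or 3 (0.0867) and without MHCII-hi replicate 1 (0.0546).

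All 4 genes of checkpoint mediators and fork protection were lower, and Tipin and Topbp1 had the highest mean levels per length of the 37. Of all tested genes 40.6% were lower. Among those with a mean of at least 5 FPKM, as these 4 have, 46.7% were. TIMELESS and TIPIN form a complex that travels with the replication fork and recruits CLASPIN, through which ATR activates CHK1. Timeless (chromosome 10, 128232065 to 128252941) stood at 14.31, 12.99 and 13.15 FPKM in MHCII-lo and at 9.39, 8.81 and 9.64 in MHCII-hi. Its mean was 31.2% lower, and its log2 fold change of FPKM + 1 was the largest of the 37 (−0.49, SE 0.0512, limma adjusted p 0.000191). In mean FPKM, Rad51b (34.1%), Bard1 (32.6%) and Fancb (32.3%) were lower by a larger share. Tipin (chromosome 9, 64281581 to 64305424) stood at 59.82, 57.35 and 59.23 FPKM in MHCII-lo and at 44.63, 46.83 and 45.40 in MHCII-hi. It had the smallest adjusted p of the members (log2 fold change −0.36, SE 0.0292, adjusted p 5.73e-05). Per length Tipin exceeded its partner 4.37 ± 0.167-fold in MHCII-lo and 4.93 ± 0.338-fold in MHCII-hi, and these ratios did not overlap. Clspn (chromosome 4, 126556935 to 126593903) stood at 11.03, 11.90 and 11.16 FPKM in MHCII-lo and at 8.80, 8.38 and 9.12 in MHCII-hi (log2 fold change −0.34, adjusted p 0.000733). Topbp1, the direct activator of ATR (chromosome 9, 103305215 to 103350428), stood at 25.12, 24.75 and 25.98 FPKM in MHCII-lo and at 21.18, 21.90 and 21.72 in MHCII-hi (log2 fold change −0.22, adjusted p 0.000943). In each of the 4 genes the fractions were fully apart. The call of Topbp1 was lost with totals without neutrophil markers (adjusted p 0.0505).

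Over all members the summed level was 285 ± 0.546 FPKM in MHCII-lo and 233 ± 3.9 FPKM in MHCII-hi. The coefficient of variation between libraries of a fraction had a median over members of 4.88% (MHCII-lo) and 6.04% (MHCII-hi). Members ranged from a mean of 1.15 FPKM (Rad51c) to 52.2 FPKM (Tipin), with a median of 5.05 FPKM against 7.02 over all tested genes. Of the 19 members with a mean of at least 5 FPKM 14 were called lower (73.7%, against 46.7% of the 7354 genes at that level), and of the 18 below it 6 were (33.3%, against 30.9% of 4683 genes, a share near the background). The plot of level against change places the members within the cloud of all genes.

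**Figure D3:**
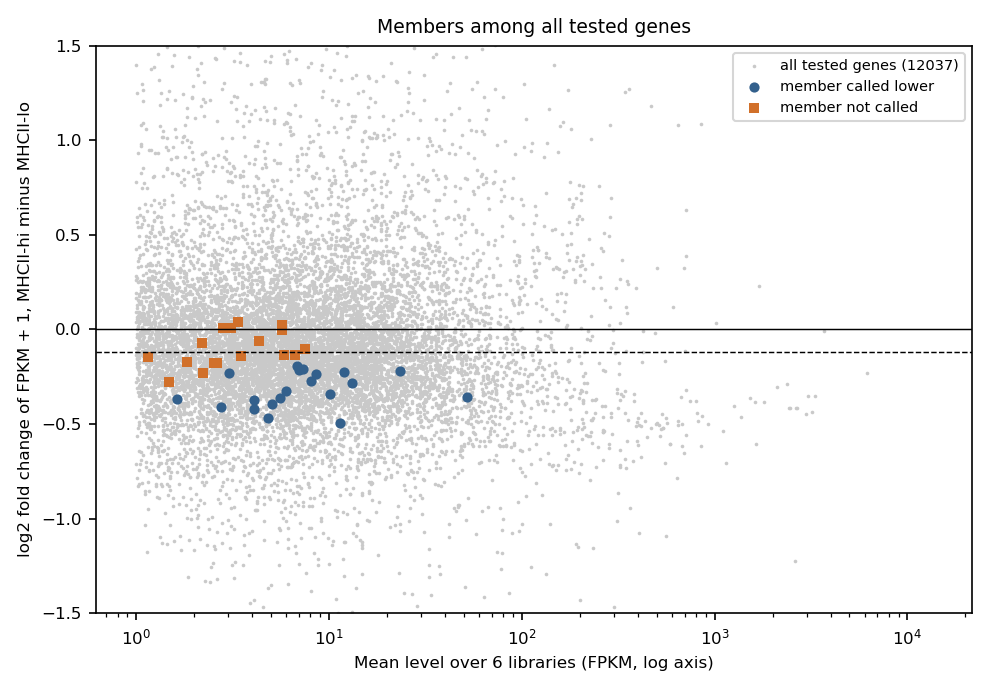
Mean FPKM over 6 libraries (log axis) against the log2 fold change of FPKM + 1 (MHCII-hi minus MHCII-lo) for 12037 tested genes in grey, with members called lower as blue circles and the other members as orange squares. The axis stops at 1.5 in either direction. Members lie between −0.49 and 0.04, and every uncalled member but Fancg lies below 7 FPKM.

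Other genes of the same pathways were taken from lists that hold none of the members. Of 32 tested genes of homologous recombination 15 were lower and none higher (median −0.16), of 18 further Fanconi genes 8 were lower (median −0.19) and of 21 genes of damage signalling 10 (median −0.14). The lower shares were 46.9%, 44.4% and 47.6%, not far above the 40.6% of all tested genes (median −0.12). Counted once, 33 of 70 such genes were lower (47.1%) and none higher, where 20.4% of all tested genes were higher. After median-ratio scaling 26 were lower and 7 higher, with a median of −0.05. The shares over all tested genes were then 25.9% lower and 28.2% higher (median −0.01). The lower genes with the smallest p-values included Uimc1 (37.6 ± 0.28 and 29.5 ± 0.533 FPKM), whose product brings BRCA1 to ubiquitin at breaks, and Rpa3 (25.9 ± 1.53 and 16.1 ± 1.19 FPKM), the small subunit of the protein that coats single-stranded DNA. Usp1, the enzyme that removes ubiquitin from FANCD2 and FANCI, went from 70.8 ± 1.37 to 55.5 ± 0.711 FPKM (limma adjusted p 2.93e-05). Pkmyt1, a kinase that inhibits CDK1, went from 19.8 ± 0.503 to 11.9 ± 0.586 FPKM, and H2ax, the histone that ATM marks at breaks, from 82.9 ± 5.18 to 58.7 ± 0.147 FPKM.

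Genes of other repair routes included some that were higher in MHCII-hi, in numbers of 3 each for end joining, nucleotide excision repair and base excision repair. Over all tested genes 40.6% were lower and 20.4% higher. Of 10 tested genes of non-homologous end joining, which ligates breaks without a template, 2 were lower and 3 higher, with a median of 0.09. This median was 0.16 to 0.19 under the 4 other scalings and −0.00 when low genes were not filtered out. Leaving out a library gave 0.02 without MHCII-lo replicate 1 or 3, 0.04 without MHCII-hi replicate 3, 0.18 without MHCII-lo replicate 2 and 0.14 without MHCII-hi replicate 1. Dclre1c, the Artemis nuclease, went from 2.01 ± 0.13 to 2.96 ± 0.0902 FPKM (adjusted p 0.00131) and Xrcc5, which encodes Ku80, from 4.54 ± 0.225 to 6.03 ± 0.549 FPKM (0.00416). Xrcc6, which encodes Ku70, the partner of Ku80, was lower, at 12.7 ± 0.14 and 11 ± 0.338 FPKM (0.00366). Whether any of these routes differs from the recombination genes as a group was not tested. Mismatch repair had 3 of 7 genes lower and none higher (median −0.15). Nucleotide excision repair had 10 of 18 lower and 3 higher (median −0.14), and base excision repair 10 of 18 lower and 3 higher (median −0.22). Either excision repair list thus had 55.6% lower and 16.7% higher, beside 54.1% lower and none higher of the members. After median-ratio scaling mismatch repair had 2 lower and none higher (median −0.07). Nucleotide excision repair then had 6 lower and 5 higher (median −0.03), and base excision repair 7 lower and 3 higher (median −0.11). Of all tested genes 25.9% were lower and 28.2% higher with that scaling. The higher genes of base excision repair numbered 1 when replicate 3 of either fraction was left out. Msh6, which encodes a protein that recognises mismatches, had 19.2 ± 0.22 FPKM (MHCII-lo) and 14.9 ± 0.433 FPKM (MHCII-hi).

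Most listed genes of the cell cycle were lower in the same libraries, but 2 of S phase and 5 of G2 and M phase did not pass. Of all tested genes 40.6% were lower and 20.4% higher. After median-ratio scaling these shares were 25.9% and 28.2%. Of 28 S phase genes 26 were lower and none higher, with a median of −0.39, and 23 were lower and none higher after median-ratio scaling. Their summed level ranged from 1038 to 1052 FPKM in MHCII-lo and from 780 to 793 in MHCII-hi. Pcna, the sliding clamp of replication, went from 186 ± 4.24 to 129 ± 1.65 FPKM, and Mcm6, a subunit of the replicative helicase, from 89 ± 1.22 to 62.7 ± 0.844 FPKM. Of 20 genes of G2 and M phase 15 were lower and none higher (median −0.21), and 10 were lower and 3 higher after median-ratio scaling. The summed G2 and M level ranged from 726 to 745 FPKM in MHCII-lo and from 636 to 642 in MHCII-hi. The part of cell cycle differences in the change of the repair genes was not tested.

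**Figure D4:**
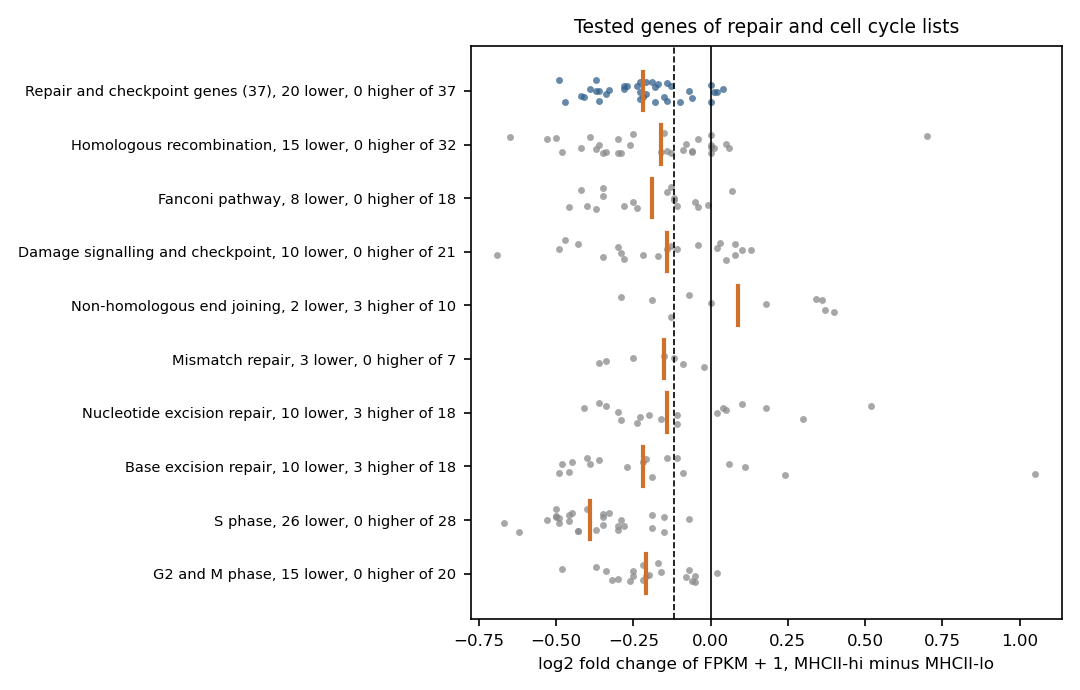
Log2 fold change of FPKM + 1 (MHCII-hi minus MHCII-lo) of each tested gene in 10 lists, with 1 point per gene, an orange bar at the list median and a dashed line at the median of all tested genes. Labels give how many genes of each list were called lower and higher. The repair and checkpoint genes have their median at −0.22, S phase genes at −0.39 and non-homologous end joining genes at 0.09.

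The share of members called lower stood above that of all genes in each of the 16 other settings run, as the plot by setting shows. It was nearest to the background with totals without neutrophil markers, at 32.4% against 25.7%, and it was 54.1% against 40.6% as reported. A pseudocount of 0.1 gave 54.1% against 40.4% (20.3% of all genes higher), and one of 5 gave 54.1% against 40.7% (20.4%). Without a filter on low values 48.6% of members and 17.1% of all genes were lower (10.3% higher), and among genes that averaged 5 FPKM or more 73.7% and 47.5% were (24.2% higher). Without an intensity trend the shares were 56.8% and 40.6% (20.3% higher). Leaving out a library gave 48.6 to 56.8% of members against 36.1% (without MHCII-lo replicate 1), 36.2% (MHCII-lo 3), 36.5% (MHCII-lo 2 and MHCII-hi 3), 37.3% (MHCII-hi 2) and 37.5% (MHCII-hi 1) of all genes, with 18.4 to 18.9% of all genes higher. With the replicate number as a block, the shares were 54.1% and 38.7% (19.1% higher).

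**Figure D5:**
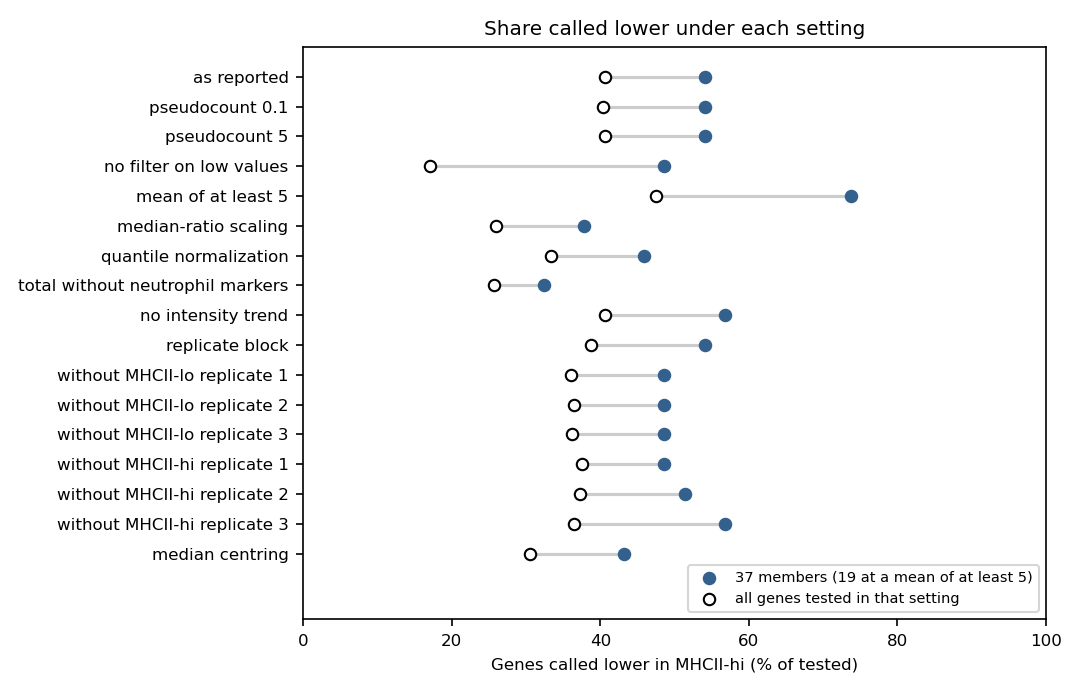
Percent of tested genes called lower in MHCII-hi by limma (adjusted p under 0.05) under the reported setting and 16 others, for the repair and checkpoint genes (filled) and for all tested genes (open). The filled point lies to the right of the open one in every setting shown.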

How the data were processed

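Poly(A) RNA was sequenced from stranded libraries, per the labels' protocols. fastp, HISAT2, StringTie and the builds GRCm38 and mm10 are named in the submitters' processing notes, without versions; the annotation and strand setting used are not stated. The authors deposited 1 value per gene symbol and library, which was inferred to be FPKM: values have 2 decimals and library sums differ (327364 to 346651). Of 30803 rows 70 repeated a symbol, and the row with the highest mean was kept. Groups follow the labels.

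The 12037 genes that averaged 1 FPKM or more were compared as log2(FPKM + 1) with limma 3.58.1 (R 4.3.3, intensity trend, group as only term) and Benjamini-Hochberg adjustment; intervals are 95%. No count model was used. Alternatives changed the pseudocount, filter, scaling or variance model, added a replicate block or left out a library. The fit was tested on simulated data with 50 changed genes of each size. It called 19 (38%) at 1.25-fold of FPKM + 1, 44 (88%) at 1.5-fold, 49 at 2-fold and 50 at 4-fold, with 8 false calls. Small changes can thus be missed, and a gene that did not pass is not shown to be unchanged. Far more genes were called in the data than were changed in the simulation, so the share found there may differ. Gene positions and exon overlaps come from GENCODE M21 (GRCm38), promoters from RefSeq (GRCm38.p6). Python 3.11.15 with pandas 2.3.3 served for the rest.

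The members, lists and motifs were chosen with earlier results of these data known. All members are named; from other lists, genes with the 3 smallest p-values in a direction could be named.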

Additional observations from a re-analysis of the deposited data

How the results depend on the processing

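Of the 20 lower calls, 12 held in each of the 16 other settings that tested the gene. The number of lower members was 12 with totals without neutrophil markers, where 1 member, Fanca, was higher (log2 fold change 0.11, against 0.00 as reported), and it was 14 to 21 in the other settings, among them 14 of the 19 members tested at a mean of at least 5 FPKM. The members' median of −0.22 became −0.25 with a pseudocount of 0.1, −0.13 with a pseudocount of 5, −0.10 with median-ratio scaling, −0.15 with quantile normalization, −0.09 with totals without neutrophil markers and −0.15 with median centring, which was added after the data were seen. Leaving out each library in turn gave 18 to 21 lower members, with medians of −0.24 to −0.21, and none higher. With the replicate number as a block, 20 members were lower and none higher (median −0.22). Deviations of same-numbered libraries from their group means correlated at −0.0533 to −0.0435, and those of differently numbered libraries at 0.00425 to 0.0408. With 3 libraries per fraction and a spread that may be technical, these values cannot tell whether the numbers pair libraries. Without a filter on low values, 4598 of 26858 genes were lower and 2770 higher. FPKM without read numbers leaves the counting error of low genes, such as Rad51c and Fancc, unknown.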
